A study of Mus musculus with 11 samples.

Results

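The insulin receptor family and its main substrates were read as 5 genes of the 32285 in the deposited count table: the receptor genes Insr, Igf1r and Insrr and the substrate genes Irs1 and Irs2. They were taken by symbol, each matched 1 row, and all 5 passed the filter for low counts that left 15093 genes. The set was selected on measured values: the log2 differences between azoramide and DMSO in these same libraries, in which Insrr stood among the most strongly lowered genes. The azoramide values of the 5 genes are therefore given as a description, and no test on them is used as support. Pancreatic islets came from mice carrying a beta cell-specific knockout of Zzef1, labelled βZKO_Mip, and from littermate controls. All mice were 16 weeks old and had received a high-fat diet for 4 weeks. Islets were exposed for 24 h to azoramide at 10 µM or to its solvent DMSO, and each library pooled the islets of at least 3 mice of 1 genotype. The 11 libraries fell into control islets with DMSO (n = 3), control islets with azoramide (n = 3), labelled knockout with DMSO (n = 2) and labelled knockout with azoramide (n = 3). No group was on a standard diet or without DMSO or azoramide.

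The insulin receptor and the IGF1 receptor are tyrosine kinases on the cell surface. When insulin or an insulin-like growth factor binds, they phosphorylate themselves on tyrosines of the kinase activation loop and then phosphorylate the docking proteins IRS1 and IRS2. The docking proteins recruit PI3-kinase, which leads to AKT, and AKT keeps the FOXO transcription factors out of the nucleus. The third member, the insulin receptor-related receptor encoded by Insrr, binds no known peptide ligand, responds to alkaline medium and is known for its mRNA in pancreatic beta cells. In beta cells IRS2 is known for its part in growth and survival. Azoramide is a compound known to act on the folding of proteins in the endoplasmic reticulum.

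The 3 receptor genes are copies of one ancestral gene, so it matters whether their reads can be told apart. In the coding sequences of GENCODE M21 (GRCm38), Insr and Igf1r matched at 68.1% of aligned bases, Igf1r and Insrr at 66.4%, and Insr and Insrr at 64.4%. The longest run of identical bases between 2 of these coding sequences was 29 bases, between Insr and Insrr, and between whole transcripts it was 43 bases, between Insr and Igf1r. The stretch that encodes the activation loop is shown for the ligand-binding receptors Insr and Igf1r, because it is the site on which their signalling turns and they match there more than over the whole coding sequence. Each sequence runs 5′ to 3′ along the coding strand, and capitals mark the 3 tyrosine codons.
Insr: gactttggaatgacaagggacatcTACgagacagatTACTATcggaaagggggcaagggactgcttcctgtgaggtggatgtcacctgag
Igf1r: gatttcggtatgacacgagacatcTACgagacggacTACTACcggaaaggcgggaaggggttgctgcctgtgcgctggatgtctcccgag
Over these 90 bases Insr and Igf1r shared 73 bases (81.1%) and encoded the same residue at 30 of 30 codons. The longest identical run between them within the loop was 14 bases. The substrate genes Irs1 and Irs2 matched at 66.5% of aligned coding bases, with a longest identical run of 21 bases.

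On GRCm38, Insr lies on the minus strand of chromosome 8, 3122061 to 3279617, with 21 exons in its longest transcript. Igf1r lies on the plus strand of chromosome 7, 67952827 to 68233668, also with 21 exons. Insrr is compact, with 22 exons on the plus strand of chromosome 3, 87796951 to 87816101. It lies within the span of Pear1 on the opposite strand without sharing exonic bases, and Pear1 had only 41 to 81 counts per library. Irs1 (chromosome 1, 82233101 to 82291416, minus strand) and Irs2 (chromosome 8, 10984681 to 11008458, minus strand) have 2 exons each. Irs1 shares 2822 exonic bases with Gm9747 on the other strand, which had 0 to 4 counts, and Irs2 shares 162 with 9530052E02Rik, which had 7 to 19. Whether the counting used strand is not given in the sources used here, and reads of such pairs cannot be told apart.

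Library totals ran from 16832800 to 19501813 counts. Zzef1 was read in every library labelled knockout, at 79.4 and 83.5 CPM (a gene's counts scaled to a common library size by TMM) with DMSO and 68.7 to 77.7 CPM with azoramide. Control libraries had 85.4 to 110 CPM with DMSO and 64.3 to 68.1 CPM with azoramide. The Zzef1 reads thus do not show the deletion, the deleted part is not given in the sources used here, and "labelled knockout" is kept throughout. Library 2 of control islets with DMSO and library 3 of labelled knockout with azoramide stood apart from their groups on the second principal component (11.8% of the variance). On the first component (38.2%) the former was at -13.7, against -28.0 and -34.7 for libraries 1 and 3 of its group. The latter was at 7.92, against 31.0 and 34.8 for libraries 1 and 2 of its group. Both thus lay there between the rest of their group and the other treatment. Beta cell markers were read in every library, with summed levels of 139961 to 142607 CPM in control islets with DMSO and 152242 to 192981 with azoramide, and 130209 to 133401 and 141132 to 174977 in labelled knockout. Most of each sum was Ins2 and Ins1, at means of 84899 and 32781 CPM in control islets with DMSO. The median log2 difference of the list with azoramide was -0.35 in control islets and -0.46 in labelled knockout, so the sums do not stand for the whole list. Of 10 beta cell markers 4 rose with azoramide and 4 fell in control islets, against 3 and 4 in labelled knockout. Alpha cell markers moved with azoramide, from 14324 to 15854 CPM up to 24292 to 27684 in control islets, and in labelled knockout from 14423 to 16427 up to 23564 to 25310. Of 6 alpha cell markers 4 rose in control islets and 5 in labelled knockout. Gamma cell markers stood at 2042 to 2818 CPM and 3615 to 4088 CPM in control islets with DMSO and azoramide. A list of 4 hepatocyte genes went from 370.0 to 436 CPM to 672 to 880.1 CPM in control islets, but 1 of them, Ttr, is also counted among the alpha cell markers. Acinar markers varied between libraries of each group, from 586 to 5924 CPM in all. Endothelial markers stood at 326 to 334 CPM with DMSO and 233 to 300 CPM with azoramide in control islets, and 3 of 7 fell in each genotype. Macrophage markers stood at 42.4 to 53.0 CPM and 59.1 to 73.5 CPM, and 2 of 7 rose in each genotype, a count near the share over all genes. The summed level of 4 adipocyte markers reached at most 0.565 CPM. The part of these shifts in the results below was not tested, and in bulk islets fewer cells of a type and less RNA per cell cannot be told apart.

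Levels were compared between genes per kilobase of exonic length. In control islets with DMSO, Insrr was the most abundant of the 5 at 39.1 ± 9.57 CPM per kb (SD, n = 3). Igf1r followed at 20.6 ± 5.45 and Irs2 at 14.2 ± 3.39 CPM per kb (SD, n = 3 each). Insr was at 4.83 ± 0.532 and Irs1 at 1.81 ± 0.227 CPM per kb (SD, n = 3 each). The lowest Insrr library (29.6 CPM per kb) lay above the highest Igf1r library (25.6), whereas the libraries of Igf1r (14.8 to 25.6) and Irs2 (10.7 to 17.5) overlapped. In labelled knockout with DMSO the order was the same and no neighbours overlapped, with Insrr at 47.1 ± 1.16 CPM per kb (SD, n = 2). Per kilobase of exonic length, Insrr thus exceeded both ligand-binding receptors in the DMSO libraries.

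With azoramide, Igf1r headed the order, at 18.8 ± 1.67 CPM per kb in control islets and 22.2 ± 1.10 in labelled knockout (SD, n = 3 each). Irs2 and Insrr came next with overlapping libraries: Irs2 was at 11.9 ± 0.774 and 14.1 ± 1.20 CPM per kb, and Insrr at 11.7 ± 1.56 and 10.9 ± 4.68 (SD, n = 3 each). Insr was at 3.43 ± 0.236 and 3.55 ± 0.325 CPM per kb, and Irs1 remained the least abundant at 1.53 ± 0.211 and 1.78 ± 0.382 (SD, n = 3 each). Over the length of the longest transcript in place of all exons, the order of the means was the same with DMSO, but in control islets the libraries of Insrr (33.2 to 54.6 CPM per kb) and Igf1r (21.7 to 37.6) then overlapped. With azoramide in control islets Insrr then stood above Irs2, at 13.1 and 11.9 CPM per kb.

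**Figure D1:**
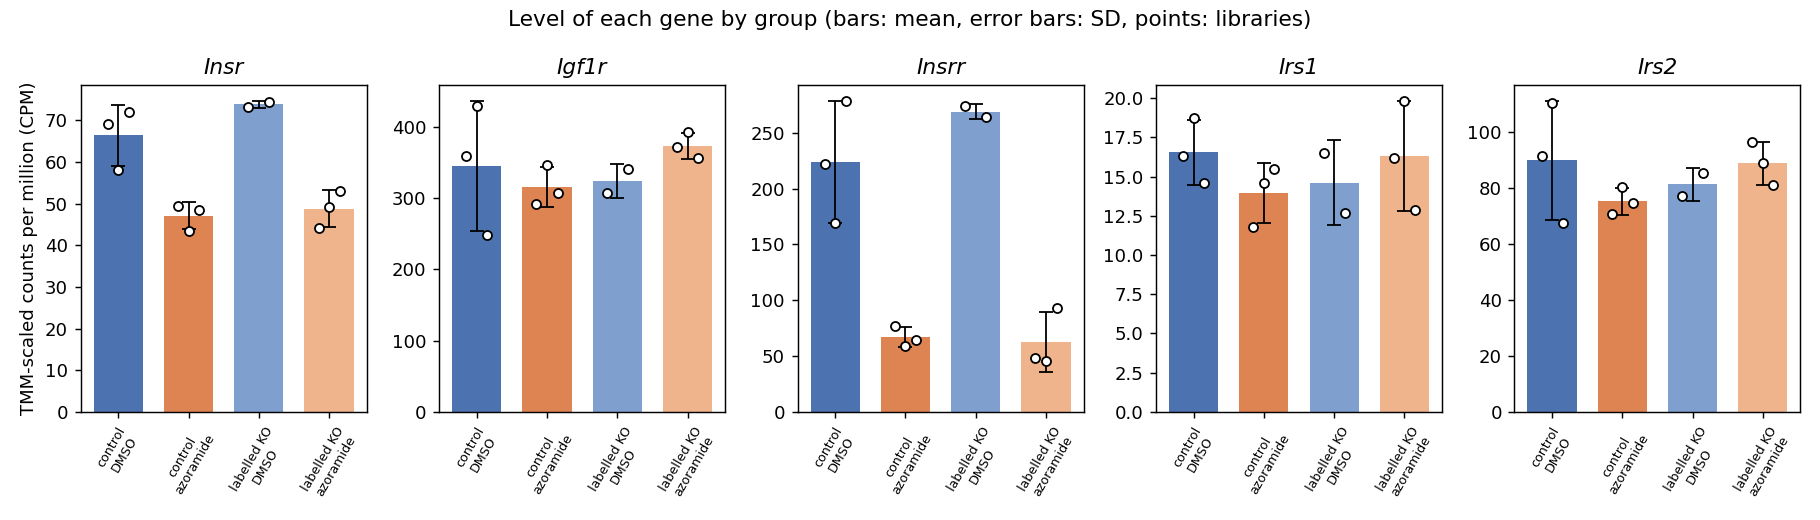
Level of each of the 5 genes in TMM-scaled CPM (vertical axis from 0) in the 4 groups; bars are means, error bars the SD and points the libraries. Insrr stands at 169 to 279 CPM in all 5 DMSO libraries and at 45.9 to 93.4 CPM in all 6 azoramide libraries, and Insr shows a smaller gap in the same direction.

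Insrr had the widest difference between treatments. In control islets with DMSO its 3 libraries were at 222, 169 and 279 CPM, and with azoramide at 76.5, 59.0 and 64.5 CPM. In labelled knockout the DMSO libraries were at 274 and 264 CPM and the azoramide libraries at 48.4, 45.9 and 93.4 CPM. Every azoramide library lay below every DMSO library in both genotypes, and labelled knockout azoramide library 3 was the highest of the treated ones. The log2 difference was -1.74 (SE 0.31; 95% interval -2.48 to -1.01) in control islets, the 44th lowest of 15093 genes. In labelled knockout it was -2.10 (SE 0.34; 95% interval -2.90 to -1.31), the 25th lowest. Without labelled knockout azoramide library 3 the latter was -2.51.

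Insr, the insulin receptor gene, differed in the same direction by less. Its control libraries were at 69.0, 58.2 and 72.1 CPM with DMSO and 49.5, 43.4 and 48.3 CPM with azoramide. In labelled knockout the values were 73.1 and 74.4 CPM with DMSO and 44.1, 49.2 and 53.0 CPM with azoramide. The treatment groups did not overlap in either genotype. The log2 difference was -0.50 (SE 0.09; 95% interval -0.68 to -0.31) in control islets and -0.60 (SE 0.09; 95% interval -0.80 to -0.40) in labelled knockout.

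Igf1r, which encodes the receptor for IGF1 and IGF2, showed no common direction. Its control libraries were at 360, 429 and 248 CPM with DMSO and 292, 346 and 307 CPM with azoramide. The DMSO libraries spanned the azoramide libraries on both sides, and the log2 difference was -0.13 (SE 0.18; 95% interval -0.54 to 0.27). In labelled knockout the values were 307 and 341 CPM with DMSO and 372, 393 and 356 CPM with azoramide, a difference of 0.21 (SE 0.20; 95% interval -0.25 to 0.66). There every azoramide library lay above both DMSO libraries. The control value rested on single DMSO libraries: it was 0.05 without library 2, and -0.32 (edgeR adjusted p = 0.00708) without library 3. In a fit of only the labelled knockout libraries the difference of 0.21 had an edgeR adjusted p of 0.0226.

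The substrate gene Irs2, like Irs1, had log2 differences of the same sign as Igf1r in each genotype. Its control libraries were at 91.7, 110 and 67.7 CPM with DMSO and 70.7, 80.5 and 74.7 CPM with azoramide. In labelled knockout they were at 77.3 and 85.6 CPM with DMSO and 96.4, 89.0 and 81.2 CPM with azoramide. The groups overlapped in both genotypes, and the log2 differences were -0.26 (SE 0.16) and 0.13 (SE 0.17). The control value was -0.42 without DMSO library 3 (edgeR adjusted p = 0.00144) and -0.08 without DMSO library 2.

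Irs1 was the weakest gene of the set, with 201 to 378 counts per library. Its control libraries were at 16.3, 18.7 and 14.6 CPM with DMSO and 11.8, 14.6 and 15.5 CPM with azoramide. In labelled knockout they were at 16.5 and 12.7 CPM with DMSO and 16.2, 19.9 and 12.9 CPM with azoramide. The groups overlapped in both genotypes, at log2 differences of -0.24 (SE 0.16) and 0.16 (SE 0.18). The labelled knockout value was -0.02 without DMSO library 2 and -0.0051 without azoramide library 2.

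Insr and Insrr were past the threshold (edgeR quasi-likelihood test, adjusted p under 0.05 over all genes) and lower in both genotypes, and no other member was. Over all genes 39.0% were called in control islets and 39.8% in labelled knockout, of which 19.8% of all genes lower in each. Groups that did not overlap, with azoramide lower, were found for 24.6% and 31.4% of all genes. Groups that did not overlap in either direction made up 48.4% and 61.6%. Azoramide above DMSO without overlap, as for Igf1r in labelled knockout, was found for 30.2%. Since the set was chosen with this comparison in view, nothing is read from these counts. Plain library totals in place of TMM scaling moved the median log2 difference of all genes from -0.02 to -0.19 (control islets) and from -0.0032 to -0.16 (labelled knockout). The share of calls that were higher then went from 49.3% to 24.8% and from 50.2% to 29.1%. Under plain totals Irs2 was at -0.42 in control islets (edgeR adjusted p = 0.0467) and at -0.03 in labelled knockout, and Insr and Insrr kept their direction and calls.

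**Figure D2:**
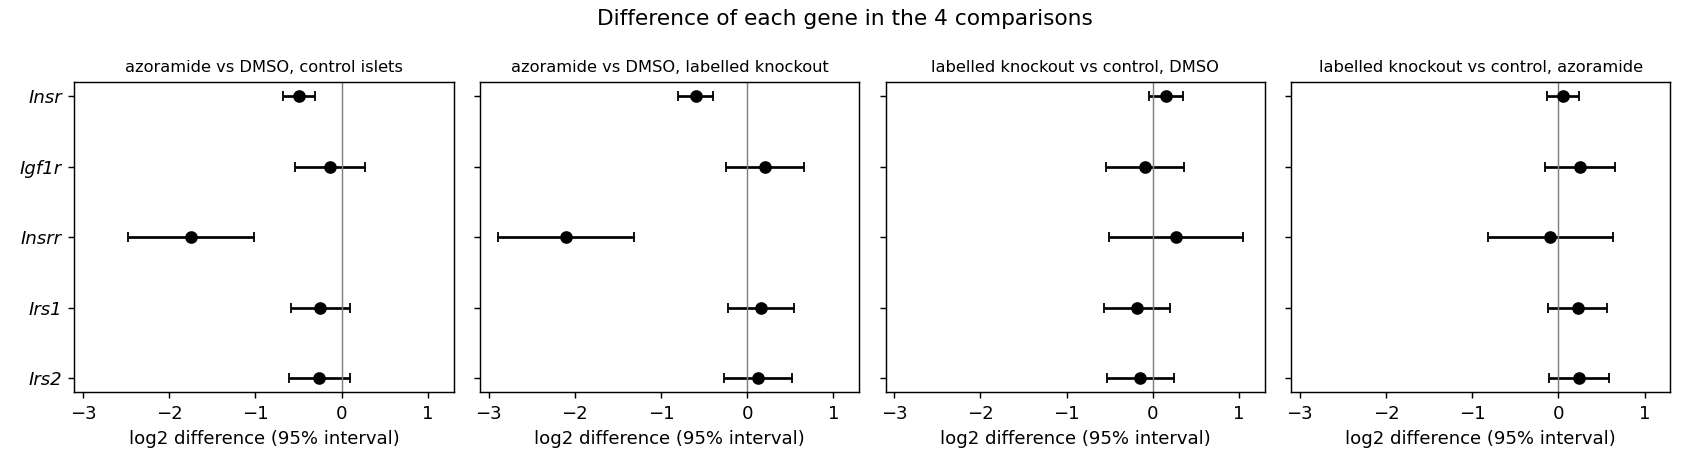
Log2 difference (horizontal axis, point) with its 95% interval (bar) for each gene in the 2 azoramide and the 2 genotype comparisons. The intervals of Insr and Insrr lie below 0 in both azoramide comparisons, and all intervals of the genotype comparisons include 0.

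The composition of the receptor mRNA differed between treatments accordingly. Of the summed CPM per kb of the 3 receptors, Insrr made up 60.1% ± 10.5 in control islets with DMSO and 34.4% ± 4.34 with azoramide (SD, n = 3 each). In labelled knockout it made up 65.6% ± 1.92 (SD, n = 2) and 29.2% ± 9.01 (SD, n = 3). Igf1r took the larger share with azoramide, 55.4% ± 4.95 in control islets and 61.2% ± 8.66 in labelled knockout, against 32.4% ± 10.8 and 26.9% ± 1.85 with DMSO. Insr made up 7.12% to 7.68% in the DMSO libraries and 9.26% to 10.6% in the azoramide libraries. The ratio of Insrr to Insr per length was 8.02 ± 1.17 and 8.77 ± 0.330 with DMSO in control and labelled knockout islets, and 3.40 ± 0.276 and 3.04 ± 1.06 with azoramide. The ratio of the substrates stayed within its spread: Irs2 was 7.79 ± 0.955, 7.87 ± 0.851, 8.25 ± 2.11 and 8.07 ± 1.40 times Irs1 per length in control DMSO, control azoramide, labelled knockout DMSO and labelled knockout azoramide. These shares follow from the levels above and carry no test of their own.

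**Figure D3:**
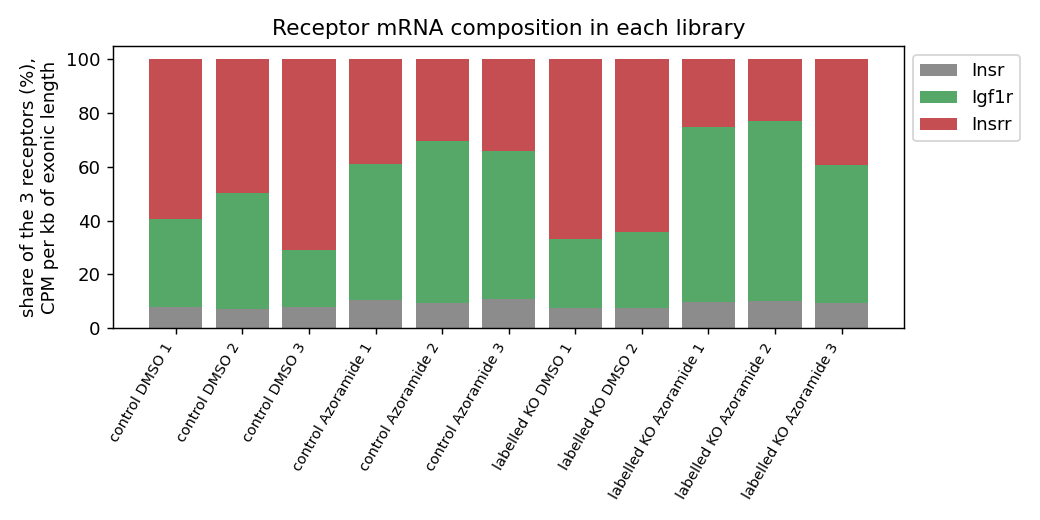
Share of Insr, Igf1r and Insrr in the summed CPM per kb of the 3 receptors (stacked to 100%) in each of the 11 libraries. Insrr holds 49.9% to 70.9% in the DMSO libraries and 22.9% to 39.5% in the azoramide libraries.

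Within each group, Insrr was highest where Irs2 and Igf1r were lowest: in 4 of 4 groups the library with the highest Insrr had the lowest level of both. The highest Irs2 and the highest Igf1r fell in the same library in 3 of 4 groups, the exception being labelled knockout with azoramide (libraries 1 and 2). In control islets with DMSO this was library 3, with Insrr at 279, Irs2 at 67.7 and Igf1r at 248 CPM. Library 2 of that group had the reverse, with the lowest Insrr (169 CPM) and the highest Irs2 (110 CPM) and Igf1r (429 CPM). In labelled knockout with azoramide it was library 3, with Insrr at 93.4, Irs2 at 81.2 and Igf1r at 356 CPM. In every group but labelled knockout with DMSO, the library with the highest Insrr also had the lowest Irs1 and the highest Insr. How many of all genes order in these ways was not counted. With 2 or 3 libraries a group the order is a description of the libraries, and no test was made of it. Library 2 of control islets with DMSO and library 3 of labelled knockout with azoramide are also the libraries that stood apart over all genes.

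Irs2 and Igf1r had their lowest levels in the same library of each group, an order not counted over all genes. The 250 bases before the start sites of Igf1r and Irs2 are shown, from RefSeq on GRCm38.p6. RefSeq's table had an entry for 3 of the 5 genes, Igf1r, Irs1 and Irs2. Each runs 5′ to 3′ along the gene's strand, and capitals mark matches to the GC box GGGCGG on either strand. The Igf1r stretch is chr7:67952007-67952256 on the plus strand and the Irs2 stretch chr8:11008930-11009179 on the minus strand. The RefSeq start sites lie upstream of the GENCODE M21 gene starts given above (67952827 for Igf1r and 11008458 for Irs2). Bases between a stretch and the GENCODE start were not searched.
Igf1r: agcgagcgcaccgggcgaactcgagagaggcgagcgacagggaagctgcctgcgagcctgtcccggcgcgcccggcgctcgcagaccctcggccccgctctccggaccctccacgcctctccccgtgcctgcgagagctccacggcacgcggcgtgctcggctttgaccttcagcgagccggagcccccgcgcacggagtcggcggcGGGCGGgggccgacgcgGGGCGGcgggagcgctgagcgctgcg
Irs2: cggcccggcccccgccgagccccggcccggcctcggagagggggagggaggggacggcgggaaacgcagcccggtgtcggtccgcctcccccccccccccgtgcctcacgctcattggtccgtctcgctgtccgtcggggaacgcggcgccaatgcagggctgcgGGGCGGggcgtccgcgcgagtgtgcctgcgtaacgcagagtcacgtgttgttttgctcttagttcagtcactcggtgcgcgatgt
Both stretches are rich in G and C (77.6% for Igf1r and 72.8% for Irs2). Igf1r held 2 matches to GGGCGG and Irs2 held 1, as do 32.7% of the 32851 stretches of this length in the table. Irs2 is known in beta cells as a target of CREB, but neither stretch held the letters TGACG on either strand that form the core of the CREB element, which 17.8% of all stretches hold. Irs1 held 1 match to TGACG and 2 to GGGCGG. None of the 3 held TATAAA or the full TGACGTCA (12.4% and 1.5% of all). A match is a string of letters and not a measured binding site, and the absence of one concerns this window alone.

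Which of the members the knockout alters was asked with each treatment. With DMSO the log2 difference of labelled knockout against control was 0.15 for Insr (95% interval -0.05 to 0.35), -0.09 for Igf1r (-0.55 to 0.36) and 0.27 for Insrr (-0.51 to 1.05). For the substrates it was -0.18 for Irs1 (-0.56 to 0.20) and -0.14 for Irs2 (-0.54 to 0.25). The edgeR adjusted p was 0.999 for each of the 5. Both labelled knockout libraries had more Insr than any control library, at 73.1 and 74.4 against 58.2 to 72.1 CPM, a pattern found for 9.87% of all genes.

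With azoramide the differences were 0.05 for Insr (95% interval -0.13 to 0.23), 0.25 for Igf1r (-0.16 to 0.65) and -0.09 for Insrr (-0.82 to 0.63). For Irs1 and Irs2 they were 0.22 (-0.12 to 0.57) and 0.24 (-0.11 to 0.59). The edgeR adjusted p was 0.988 for Insr, 0.995 for Insrr and 0.968 for the other 3. The labelled knockout libraries lay above all control libraries for Igf1r (356 to 393 against 292 to 346 CPM) and for Irs2 (81.2 to 96.4 against 70.7 to 80.5 CPM), as 5.57% of all genes did (5.58% lay below without overlap). The intervals leave room for differences of up to about their limits, so equal levels are not shown.

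The azoramide effect itself was compared between genotypes by the interaction. It was -0.10 for Insr (SE 0.13), 0.34 for Igf1r (SE 0.27), -0.36 for Insrr (SE 0.45), 0.41 for Irs1 (SE 0.24) and 0.38 for Irs2 (SE 0.23). The edgeR adjusted p was 0.999 for each of the 5. The opposite signs of Igf1r, Irs1 and Irs2 in the 2 genotypes therefore did not amount to a detected difference. In these 3 comparisons 0% of genes were called by edgeR, and DESeq2 called 3, 2 and 0. Of 15093 genes 531, 754 and 563 had an unadjusted edgeR p under 0.05. That is no more than the share of 0.05 expected where no gene differs. Without these libraries, library 2 of control islets with DMSO and library 3 of labelled knockout with azoramide, edgeR called 1 gene higher and 1 lower between genotypes with DMSO, 49 higher and 35 lower with azoramide, and 4 higher and 2 lower in the interaction.

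Azoramide differences ran with gene length over the whole table, and the members are long. Insr has 13.7 kb of exonic sequence and Igf1r 16.8 kb, both in the longest of 10 equal bins of genes by length. Irs1 (9.14 kb) is in bin 9, Irs2 (6.32 kb) in bin 8 and Insrr (5.71 kb) in bin 7. The median log2 difference fell from 0.36 in the shortest bin to -0.22 in the longest in control islets, and from 0.36 to -0.16 in labelled knockout. The median in the bin of Insrr was -0.11 and -0.10, beside which Insrr was at -1.74 and -2.10. In the longest bin 43.9% of genes in control islets and 38.0% in labelled knockout were past the threshold and lower. With an offset that removed the trends with exonic length and GC content from the fit, Insrr was at -1.39 and -1.71 and Insr at -0.27 and -0.39, in the same direction and past the threshold. The other 3 turned or rose: Igf1r was at 0.19 and 0.53, Irs2 at 0.09 and 0.54, and Irs1 at 0.0002 and 0.41, none past the threshold. The source of the trend with length was not tested.

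**Figure D4:**
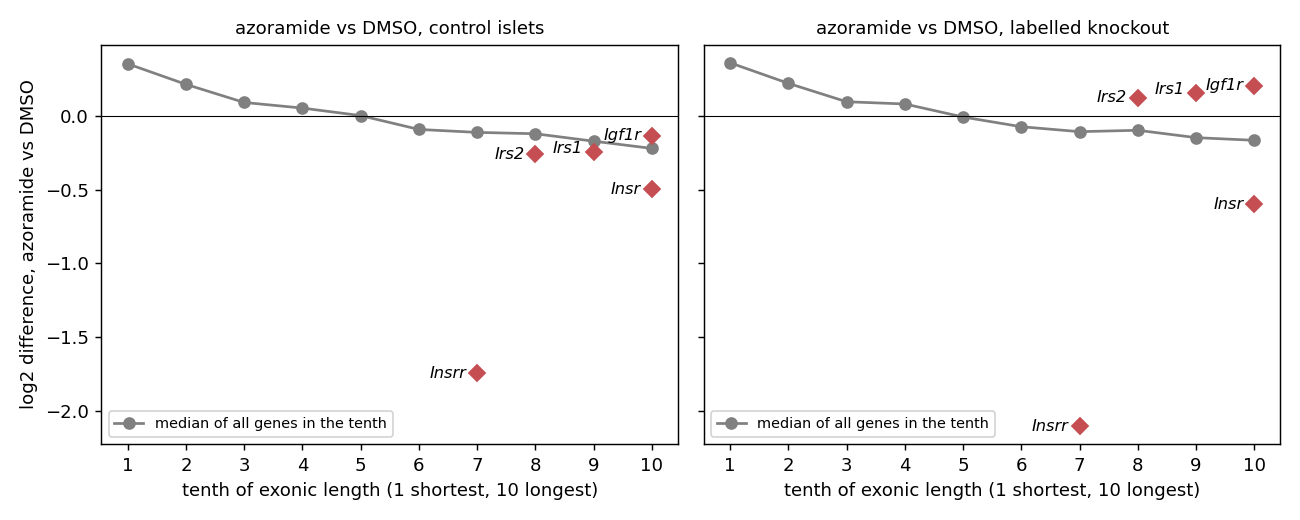
Median log2 difference of all genes by bin of exonic length (grey line, 10 equal bins, 1 the shortest) with the 5 members (red) at their own bin, in control islets (left) and labelled knockout (right). The line falls from 0.36 to -0.22 and from 0.36 to -0.16, and Insrr lies far below it at -1.74 and -2.10.

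The genes whose levels ran most like each member were named by the smallest root-mean-square distance of centred log2 CPM over the 11 libraries. For Insrr they were Mlxipl, which encodes the glucose-responsive factor ChREBP (distance 0.30), Ltbp2, a matrix protein gene (0.31), and Jag2, a Notch ligand gene (0.32), against a spread of Insrr itself of 1.01. Mlxipl was at 225, 155 and 289 CPM in control islets with DMSO, with the same order of libraries as Insrr, and at 114, 85.9 and 99.6 CPM with azoramide. In labelled knockout Mlxipl was at 249 and 240 CPM and at 60.9, 69.9 and 116 CPM. Their azoramide differences were -1.16 and -1.57 for Mlxipl, -2.16 and -2.49 for Ltbp2 and -1.17 and -1.51 for Jag2.

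For Insr the nearest genes were Rmnd5a (0.04), Phf21b (0.05) and Pag1 (0.06), a close match beside a spread of 0.29. For Igf1r they were Sik1, a salt-inducible kinase gene (0.06), Wipi1, an autophagy gene (0.07), and Chac1 (0.08), beside a spread of 0.21. Wipi1 was at 144, 187 and 100 CPM in control islets with DMSO, the order seen for Igf1r. The nearest gene to Irs2 was Igf1r itself (0.08, beside a spread of 0.20), followed by Sgms2 (0.08) and Pgrmc2 (0.08). Irs1 had no close partner: Ly6e and Mfsd6l, 2 of its 3 nearest, stood at 0.12 and 0.13 beside a spread of 0.22. The distances are descriptions over libraries that share treatment and depth, and carry no test.

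The rest of the pathway was read in 10 lists of 224 genes, chosen with earlier results known, of which 205 were tested. With azoramide 20 rose and 84 fell in control islets, against 15 and 82 in labelled knockout. Over all 15093 genes 2908 (19.3%) rose in control islets and 3014 in labelled knockout, and 19.8% fell in each. The median over the lists was -0.23 and -0.21, beside -0.02 and -0.0032 over all genes. With the offset for length and GC content 17 rose and 45 fell, against 22 and 50, at medians of -0.12 and -0.07. Without control DMSO library 1 or 3 or control azoramide library 1 or 3 the count of 20 was 12, 11, 13 and 11. In labelled knockout 51 fell without DMSO library 2, and 9 rose without DMSO library 1. Among the 205 genes 0 differed between genotypes or in the interaction.

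**Figure D5:**
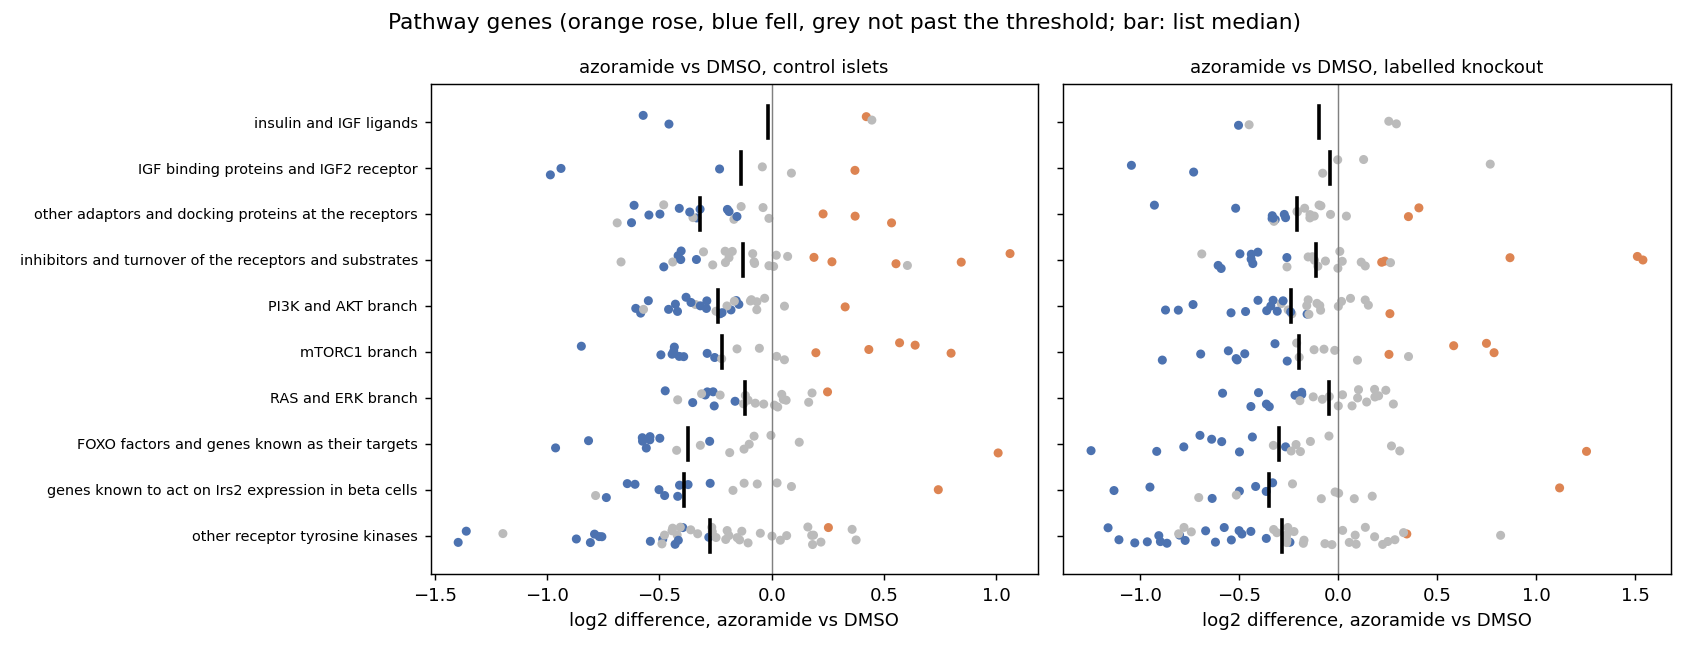
Log2 difference with azoramide of each tested pathway gene (points; orange rose, blue fell, grey not past the threshold) by list, with the list median (black bar), in control islets (left) and labelled knockout (right). The FOXO list has a median of -0.37 and -0.30. The medians of all 10 lists lie below 0, as do those of all genes (-0.02005 and -0.0032). The ligand list in control islets, at -0.0179, does not lie below the median of all genes.

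Of the ligands, Ins1 fell in both genotypes, from 31729 to 34499 CPM in control islets with DMSO to 21923 to 25293 CPM with azoramide (log2 difference -0.46, SE 0.09, edgeR adjusted p = 5.3e-04), and by 0.50 in labelled knockout. Ins2 was at 0.42 (SE 0.13, edgeR adjusted p = 0.0241) and 0.26 (adjusted p = 0.192). The call in control islets ended without any one of the 3 control DMSO libraries (0.416 to 0.425) or without control azoramide library 1 or 3 (0.34 and 0.39), and with an offset for length and GC content it was at 0.09 and -0.06 with no call. The control call of Ins2 was also absent under plain totals (0.25) and without the filter on low counts (0.43). Igf2, at a mean of 8.70 CPM in control islets with DMSO, was at -0.57 (edgeR adjusted p = 0.0346) and -0.45 (adjusted p = 0.134). That call was lost without control DMSO library 2 or 3 (-0.36 and -0.59) or control azoramide library 1 or 2 (-0.38 and -0.64), with the offset (-0.27, adjusted p = 0.368) and in a fit of only the groups compared (-0.56, adjusted p = 0.0656). In labelled knockout Igf2 passed under plain totals (-0.61, edgeR adjusted p = 0.0433). Igf1 had 1 to 19 counts per library and was at 0.45 and 0.29 with no call.

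Among the binding proteins that hold IGFs outside the cell, Igfbp5 and Igfbp3 were lower and Igfbp7, a more distant relative, was higher in control islets. Igfbp5 fell from 282 to 297 CPM to 141 to 160 CPM in control islets (log2 difference -0.94, SE 0.08, edgeR adjusted p = 1.1e-07) and by 1.05 in labelled knockout (SE 0.09, adjusted p = 1.4e-07). Igfbp3 fell by 0.98 in control islets (SE 0.22, edgeR adjusted p = 0.0083). In labelled knockout Igfbp3 was at -0.73 (adjusted p = 0.0429), a call that ended without DMSO library 1 or 2 (-0.78 and -0.67) or azoramide library 1 or 2 (-0.58 and -0.66) and without control DMSO library 2 or control azoramide library 1 or 2 (-0.73 each). It also ended with the offset (-0.74, adjusted p = 0.0596), no filter on low counts (-0.72, adjusted p = 0.0701) and a fit of only the groups compared (-0.73, adjusted p = 0.122). Igfbp7 rose from 82.3 to 104 CPM to 120 to 129 CPM in control islets (0.37, SE 0.08, edgeR adjusted p = 9.7e-04) and was at 0.13 (adjusted p = 0.256) in labelled knockout. Its values were 0.20 and -0.03 under plain totals and 0.17 and -0.02 with the offset, with no call. Igf2r, which clears IGF2, was at -0.23 (edgeR adjusted p = 0.0263) and -0.0025. That call was lost without control DMSO library 2 (-0.13) or control azoramide library 1 or 3 (-0.19 and -0.235). With the offset Igf2r was at 0.04 and 0.28, called and higher in labelled knockout. Over the list of 9, of which 6 were tested, 1 rose and 3 fell in control islets, against 0 and 2 in labelled knockout, at medians of -0.14 and -0.04. With the offset these medians were 0.08 in both genotypes.

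Of 21 tested adaptor and docking genes other than Irs1 and Irs2, 3 rose and 11 fell in control islets (median -0.32), against 2 and 8 in labelled knockout (median -0.21). Shc2 and Shc1, adaptors toward RAS, fell by 0.61 (SE 0.10) and 0.33 (SE 0.06) in control islets, against 0.93 and 0.32 in labelled knockout. Cbl, a ubiquitin ligase that tags active receptors, fell by 0.50 (SE 0.06) and 0.52 (SE 0.07). Nck1 rose by 0.37 and 0.41, a call lost in labelled knockout without DMSO library 1 (0.28). Shc1 and Nck1 lost both calls with the length and GC offset (-0.12 and -0.08 for Shc1, 0.12 and 0.09 for Nck1), as did Nck1 under plain totals (0.20 and 0.25). Over the list, the offset left 1 rising and 4 falling in control islets (median -0.19) and 0 and 4 in labelled knockout (median -0.05), and plain totals gave 0 and 15, and 1 and 12. In control islets 7 fell without DMSO library 1. In labelled knockout 3 fell without DMSO library 2 and 5 without azoramide library 1, and 1 rose without DMSO library 1.

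Of 26 tested inhibitors and turnover genes of the receptors, 5 rose and 5 fell in control islets, against 5 and 8 in labelled knockout. Of all 15093 genes, 19.3% rose in control islets, 3014 rose in labelled knockout and 19.8% fell in each. Both control counts and the 5 rising in labelled knockout were thus near the share over all genes. The 8 that fell in labelled knockout lay above that share, a difference that was not tested. The split depended on the scaling: 6 rose and 1 fell with the offset in control islets, against 7 and 3 in labelled knockout, and 1 rose and 12 fell under plain totals, against 3 and 12. Ptpn2, a phosphatase that acts on the insulin receptor, rose by 0.55 (SE 0.12, edgeR adjusted p = 0.0022) and 0.87 (SE 0.13, adjusted p = 2.5e-04), and was at 0.15 and 0.39 with the length and GC offset, called only in labelled knockout. Ptpn1, the other such phosphatase, was at -0.18 and -0.12 with no call, and its control value passed without control azoramide library 2 (-0.24) or labelled knockout azoramide library 3 (-0.17). Under plain totals Ptpn1 was called lower in both (-0.34, edgeR adjusted p = 0.00195, and -0.27, adjusted p = 0.0177). Furin, the protease that cuts the receptor precursors, fell by 0.48 and 0.59, and the receptor phosphatase gene Ptprf by 0.42 and 0.50. Both lost their calls with the offset (-0.07 and -0.13 for Furin, 0.06 and 0.05 for Ptprf). The gene 5330417C22Rik, also named Elapor1 and known for the receptor-binding protein inceptor, fell from 338 to 391 CPM to 277 to 298 CPM in control islets (-0.33, SE 0.06, edgeR adjusted p = 3.3e-04) and by 0.43 in labelled knockout. Grb10, a receptor-binding inhibitor, was at 0.0088 and 0.14 with no call, at 0.21 and 0.34 with calls under the offset, and at -0.16 and -0.02 with no call under plain totals.

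Enpp1 was weak, at 0.832 to 1.59 CPM in control islets with DMSO, and was at 1.06 (edgeR adjusted p = 0.0301) and 1.54 (adjusted p = 0.0085). Its calls ended without control DMSO library 1 or 3 (0.95 and 0.89), control azoramide library 1 or 3 (1.13 and 0.91) and labelled knockout DMSO library 2 (1.05), and the control call under plain totals (0.90). The count of 5 rising in control islets was 2 or 3 without any one library but control DMSO library 2 or labelled knockout azoramide library 2 or 3, and 9 fell without control DMSO library 2. In labelled knockout 3 rose and 5 fell without DMSO library 1, and 1 rose without DMSO library 2. The list medians were -0.13 and -0.11, and 0.05 and 0.09 with the offset.

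In the PI3K and AKT branch 1 of 28 rose and 16 fell in control islets, against 1 and 13 in labelled knockout, at a median of -0.24 in both. With the offset 3 rose and 7 fell, against 4 and 7, at medians of -0.16 and -0.13, and under plain totals 1 and 21, against 0 and 22. Inppl1 and Phlpp1, phosphatases that oppose the branch, fell by 0.60 and 0.58 in control islets, against 0.81 and 0.73 in labelled knockout. With the offset both passed only in labelled knockout (-0.38 and -0.36, against -0.24 and -0.26). Ppp2ca, a catalytic subunit of PP2A, rose by 0.33 and 0.26, the latter not called under plain totals (0.11). Akt1 and Akt2 were at -0.09 and -0.07 in control islets and -0.11 and -0.15 in labelled knockout with no call. With the offset Akt1 rose by 0.22 and 0.28 and Akt2 by 0.27 and 0.23, whereas under plain totals Akt1 fell by 0.26 in both and Akt2 by 0.23 and 0.30, so their direction depends on the scaling. Pik3r1, the regulatory subunit that binds IRS proteins, was at -0.29 (edgeR adjusted p = 0.0113) and -0.23 (adjusted p = 0.0555). The first call was lost without control azoramide library 3 (-0.24) and with the offset (-0.19, adjusted p = 0.129). Pik3r1 passed in labelled knockout under plain totals (-0.39, edgeR adjusted p = 0.0017), no filter (adjusted p = 0.0434), at least 1 CPM in every library (adjusted p = 0.0498) and only the groups compared (adjusted p = 0.00753). It also passed in labelled knockout without control DMSO library 2 or 3 (-0.23 each). In labelled knockout 8 genes of the branch fell without DMSO library 2.

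In the mTORC1 branch 5 of 19 rose and 9 fell in control islets, against 4 and 8 in labelled knockout (4 and 6, against 5 and 5, with the offset). Rps6, a ribosomal protein phosphorylated by S6 kinase, rose from 412 to 480 CPM to 773 to 787 CPM in control islets (0.80, SE 0.06) and by 0.75 in labelled knockout. Rheb, the GTPase that switches mTORC1 on, rose by 0.64 and 0.79. Ulk1, a kinase that starts autophagy, fell by 0.85 and 0.89, and Eif4ebp2, a translation repressor, by 0.49 and 0.69. Tsc2, which holds Rheb in check, fell by 0.44 and 0.56 but was at -0.05 and -0.13 and not called with the offset. Of 23 RAS and ERK genes 1 rose and 7 fell in control islets, against 0 and 8 in labelled knockout (1 and 6, against 2 and 5, with the offset). Spred2, a RAS pathway inhibitor, fell by 0.35 and 0.40, and the kinase gene Rps6ka2 by 0.47 and 0.44, the latter not called with the offset (-0.10 and -0.03). In labelled knockout 5 of the RAS and ERK genes fell without control DMSO library 1 or azoramide library 2, and 4 without either DMSO library.

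Among the 18 FOXO factors and genes known as their targets, 1 rose and 9 fell in each genotype, at medians of -0.37 and -0.30 and, with the offset, -0.37 and -0.34. Foxo1 was at 68.7, 57.9 and 69.8 CPM in control islets with DMSO and 43.5, 44.8 and 45.1 CPM with azoramide (log2 difference -0.56, SE 0.09, edgeR adjusted p = 8.7e-05), and fell by 0.50 in labelled knockout (SE 0.10, adjusted p = 5.3e-04). Foxo3 fell by 0.54 and 0.64 and Sesn3, a stress gene, by 0.57 and 0.70. Pdk4, which encodes a brake on pyruvate use, rose by 1.01 (SE 0.15) and 1.26 (SE 0.18). These 4 genes kept their direction and calls in each of 20 alternative fits.

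Of 16 genes known to act on Irs2 expression in beta cells, 1 rose and 9 fell in control islets, against 1 and 7 in labelled knockout, at medians of -0.39 and -0.35 (-0.17 and -0.11 with the offset, where 0 rose and 3 fell, against 1 and 4). Crtc2 and Crtc1, coactivators of CREB, fell by 0.41 and 0.50 in control islets, against 0.50 and 0.64 in labelled knockout. Crtc1 was not called with the offset (-0.03 and -0.11). Glp1r, the GLP-1 receptor gene, was at 372 to 638 CPM in control islets with DMSO and 314 to 341 CPM with azoramide (-0.64, SE 0.17, edgeR adjusted p = 0.0189) and fell by 0.95 in labelled knockout. The call in control islets was lost without control DMSO library 1 (-0.63) or control azoramide library 1 or 2 (-0.63 and -0.61) and with the offset (-0.51). Crem, a CREB family gene, was at 0.74 (edgeR adjusted p = 0.0452) and 1.12 (adjusted p = 0.0150). Its call in control islets was absent under plain totals (0.58) and with the offset (0.66). The same held without the filter on low counts (0.746) and in a fit of only the groups compared (0.749). The control call of Crem remained in 2 of the 11 fits that left out 1 library, and the labelled knockout call ended without either DMSO library (1.13 and 1.10). Beside these, Irs2 itself was at -0.26 and 0.13.

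Whether the receptors moved like other receptor tyrosine kinases was read from 55 genes, of which 44 were tested: 1 rose and 13 fell in control islets, against 1 and 18 in labelled knockout. The medians were -0.27 and -0.29, and -0.06 and -0.08 with the offset, where 1 rose and 5 fell, against 1 and 9. Under plain totals 20 fell in each genotype. Kit, the stem cell factor receptor gene, fell from 10.7 to 11.8 CPM to 3.86 to 4.89 CPM in control islets (-1.40, SE 0.18, edgeR adjusted p = 9.9e-06) and by 1.11 in labelled knockout. Ddr1, a collagen receptor gene, fell by 0.48 and 0.77, and was called with the offset only in labelled knockout (-0.12 and -0.33). The gene that rose in control islets did not pass without control DMSO library 1 or 3 or control azoramide library 1 or 3. In labelled knockout 11 and 8 fell without DMSO library 1 and 2. The lowest value among the 44 was -1.40 (Kit) in control islets and -1.16 (Ephb4, named after its value was seen) in labelled knockout, beside -1.74 and -2.10 for Insrr, which the choice of the set puts in view and which is given as a description.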

How the data were processed

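Bulk RNA-seq of pooled islets was measured in 11 libraries. The authors deposited whole-number read counts per gene, not normalized. Per the submitters' processing notes STAR 2.7.2a, the mm10 build and DESeq2 were used; which program and annotation counted the reads, and whether by strand, is not given in the sources used here. From the counts, genes were filtered with filterByExpr by group and scaled by TMM, and 1 edgeR 4.0.16 quasi-likelihood fit (robust, R 4.3.3) held the 4 groups. P-values were adjusted by Benjamini-Hochberg over 15093 genes at a threshold of 0.05. Alternatives were DESeq2 1.42.0, other scalings and filters, an offset for length and GC, a fit of only the groups compared, leaving out each library, and a replicate block. On simulated data the same fit made clearly more false calls than the nominal rate in both azoramide comparisons. The simulation changed far fewer genes than were called in the data, so its rate need not hold here. Lengths and overlaps came from GENCODE M21. Replicate libraries differed by more than counting noise (chi-square per degree of freedom 5.69 to 25.2). Each library pooled mice, so p-values measure the spread between libraries of pooled mice. Whether 1 pool was split between DMSO and azoramide is not given in the sources used here, and the main fit did not pair libraries.

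The members and gene lists were chosen with earlier results of these data known. Named by rule were the 5 members, Zzef1, 15 pathway genes whatever their result, from each list up to 3 rising and 3 falling genes with the smallest p in control islets among those past the threshold, the 3 genes most like each member, and genes overlapping a member. Some genes that the rule names, and 1 receptor sequence, are not reported here. Those of the lists in the text are a subset picked after their values were seen. Likeness is the root-mean-square distance of log2 CPM centred per gene.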

Additional observations from a re-analysis of the deposited data

How the results depend on the processing

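Insr and Insrr kept their direction and call with azoramide in both genotypes under each of the 20 alternatives. The set was chosen on these same differences in these libraries, so this is a description and not support. Where other results moved, the cause was not tested. With plain library totals 1628 genes were higher and 4943 lower in control islets, and 1866 and 4542 in labelled knockout; of pathway genes 7 and 9 rose, at medians of -0.397 and -0.366; Irs2 was at -0.42 and -0.0285, Grb10 at -0.159 and -0.0188, and Igfbp7 in labelled knockout at -0.0271. With the offset for length and GC content 1872 genes were higher and 1538 lower, and 1957 and 1722; 45 and 50 pathway genes fell, at medians of -0.116 and -0.0688. In control islets Igf1r was then at 0.191, Irs1 at 0.0002 and Irs2 at 0.0872. In control islets and labelled knockout Igf2r was at 0.0374 and 0.279, Ptpn1 at 0.105 and 0.213, Akt1 at 0.216 and 0.278, Akt2 at 0.2695 and 0.234, and Ptprf at 0.0633 and 0.0514; in labelled knockout Zzef1 was at 0.207, Ins2 at -0.0604 and Igfbp7 at -0.0179. Igf2r in labelled knockout was at 0.0043 with DESeq2's size factors, 0.0044 with DESeq2 and 0.0029 without the filter. Between genotypes DESeq2 called 3 genes lower with DMSO, and 1 higher and 1 lower with azoramide; without the filter 2 were lower with DMSO. In a fit of only the groups compared Igf1r in labelled knockout was at 0.2065 (edgeR adjusted p = 0.0226). Leaving out 1 library at a time gave these lowest and highest values. With azoramide in control islets 11 to 20 pathway genes rose, Igf1r ranged from -0.324 to 0.0531, Irs2 from -0.425 to -0.0813, Grb10 from -0.0655 to 0.0825 and Igf1 from -0.359 to 1.64. In labelled knockout 1941 to 3243 genes were lower, 9 to 17 pathway genes rose and 51 to 87 fell, and Irs1 ranged from -0.0196 to 0.361, Igf1 from -1.15 to 1.64 and Igf2r from -0.0699 to 0.0422. Between genotypes with DMSO 0 to 1 genes were higher and 0 to 3 lower, Igf1r ranged from -0.284 to 0.0918 and Irs2 from -0.312 to 0.031. With azoramide 0 to 3 were higher, Insr ranged from -0.0145 to 0.115 and Insrr from -0.5001 to 0.0877. In the interaction 0 to 1 genes were called in each direction. Without both libraries that stood apart, Igf1r in control islets was at 0.0534 and Igf2r in labelled knockout at 0.0426; between genotypes 1 gene was higher and 1 lower with DMSO, 49 and 35 with azoramide and 4 and 2 in the interaction, with Igf1r at 0.0918 and Irs2 at 0.031 with DMSO and Insr at -0.0147 with azoramide. The labels number replicates alike across groups, and library names share a stem between the treatments of a genotype. Of 15 same-number pairs 4 had a correlation of deviations over 0.1 (range -0.14 to 0.17), and of 30 other pairs 4. Only 5 of the 15 share a genotype (-0.14 to 0.11), and the 2 labelled knockout DMSO libraries have mirrored deviations by construction. These correlations cannot settle whether 1 pool was split between treatments. A fit with the replicate block put Igf1 in labelled knockout at -0.0121 and Igf2r at 0.0361, called 1 gene higher between genotypes with DMSO and ended the call of Igfbp3 in labelled knockout (-0.72, edgeR adjusted p = 0.117); it changed no other call on the genes named.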
